A study of Mus musculus with 15 samples.

Results

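The 43 genes described here encode the splicing factors of the SR and hnRNP families, measured as RNA in mouse epiblast-like cells (EpiLCs). They were chosen by name alone: protein-coding genes of the deposited count table called Srsf with a number, Hnrnp, Tra2a, Tra2b, Clk1 to Clk4, Srrm1, Srrm2, Son, or Ptbp1 to Ptbp3. This rule took 43 of the 52636 genes in the table, namely 11 SR proteins, 5 SR-related proteins, 20 hnRNP proteins, 3 polypyrimidine tract-binding (PTB) proteins and 4 CDC-like kinases (CLKs). All 43 passed the filter on low counts. The names of 2 processed pseudogenes, Hnrnpa1l2-ps and Hnrnpa1l2-ps2, also fitted the pattern, and these were left out as not protein-coding.

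SR proteins bind exons through RNA recognition motifs and recruit the spliceosome through a domain rich in arginine and serine. CLKs phosphorylate this domain and so release SR proteins from nuclear speckles, where they are stored. The hnRNP proteins coat nascent RNA and often act against SR proteins at an exon, and PTB proteins repress exons flanked by pyrimidine-rich sequence. Many genes of these families limit their own mRNA through poison exons or retained introns, which expose the transcript to nonsense-mediated decay or hold it in the nucleus. The data are counts per gene, which cannot show which exons were joined, so splicing itself was not measured.

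The cells were EpiLCs of the line CRAFR26, which carries a c-RAF kinase construct that 4-hydroxytamoxifen (4OHT) switches on, upstream of MEK and ERK. Cells of every group had been moved to medium with bFGF (12 ng/ml), Activin A (20 ng/ml) and XAV939 (1 µM), which makes EpiLCs within 48 h, and had then been held for 2 h in the FGF receptor inhibitor PD17 (250 nM). The 0h group received nothing more (n = 3), the 2h and 4h groups received 250 nM 4OHT for 2 h or 4 h (n = 4 each), and the rev group received 4OHT for 4 h and then a MEK inhibitor for 2 h (n = 4). The libraries came from clone 4 and clone 8 of the line, with 2 of each clone in every group other than 0h, which had 1 of clone 4 and 2 of clone 8 after the authors discarded a sample. No group had the MEK inhibitor without 4OHT, or a further 2 h of 4OHT without the inhibitor, so in rev the inhibitor and the added time cannot be told apart. Nor was any group kept 2 h or 4 h longer without 4OHT. Against 0h, activation of the kinase, 4OHT itself and the added time therefore cannot be told apart either. Nothing in the labels says that libraries of a clone came from separate cultures, and p-values then measure only the spread between these samples.

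The 4h libraries stood apart from the rest. Their total counts were 1552022 to 6658950, against 8667880 to 13004556 in the other 11 libraries, and mitochondrial genes took 7.21% to 12.4% of their counts against 2.67% to 6.98%. The 43 genes together had 11680 to 31843 counts in a 4h library and 49919 to 134756 in any other. Of 10 genes listed as ERK outputs, 8 were called higher and 1 lower in 2h vs 0h, and 7 higher and 0 lower in 4h vs 0h. In rev vs 4h, 0 were higher and 6 lower. In rev vs 0h, 5 were still higher and 1 lower, with a median log2 fold change of 1.32 over the 10. All 8 markers of epiblast-like cells, such as Pou5f1, were detected in every library, and their summed level was 1275 to 1550 CPM (a count scaled to the size of its library) at 0h, 1156 to 1391 at 2h, 837 to 953 at 4h and 1024 to 1131 in rev. Most of this sum was Dnmt3b (863 to 1061 CPM at 0h and 398 to 440 at 4h). Pou5f1 was also lower, with 151 to 184 CPM at 0h and 90.8 to 102 at 4h, as was Fgf5 (20.1 to 28.9 and 4.90 to 15.1). Sox2 instead went from 20.8 to 23.5 CPM at 0h to 81.0 to 141 at 4h and Otx2 from 8.91 to 14.5 CPM to 16.5 to 35.8. The ranges of Nanog, Pou3f1 and Utf1 at 0h and 4h overlapped. The sum over 8 markers of naive embryonic stem cells was 20.9 to 29.3 CPM at 0h, 26.1 to 31.2 at 2h, 62.7 to 216 at 4h and 28.4 to 39.1 in rev. For 4 neural markers (3 of them passing the filter) it was 3.46 to 5.45 CPM at 0h, 3.64 to 4.99 at 2h, 37.9 to 50.8 at 4h and 7.37 to 11.3 in rev, with Neurog2 at 0 in all 4h libraries. Markers of mesendoderm (6 genes), primitive endoderm (6) and fibroblasts (4, with Col1a2 at 0 in all 4h libraries) summed to at most 13.6, 7.41 and 25.9 CPM in any library. The part of these shifts in the results at 4h was not tested.

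Before induction the 43 genes spanned a wide range of levels. Per kilobase of the longest annotated protein-coding transcript of a gene, Hnrnpa2b1 was the highest at 0h with 249 ± 28.9 CPM per kb (SD, n = 3). Next was Hnrnpa1 with 157 ± 14.3. Both package nascent mRNA. Hnrnpl (122 ± 9.74 CPM per kb) and Hnrnpab (122 ± 23.7) came next and did not differ beyond their spread. Among SR proteins, Srsf5 (85.0 ± 8.58 CPM per kb) and Srsf2 (81.3 ± 12.2) were the highest, and Srsf12 was the lowest of all 43 genes at 0.253 ± 0.0449. CLK genes were low, from 16.1 ± 0.760 CPM per kb for Clk1 to 4.69 ± 0.317 for Clk3. Of the PTB genes, Ptbp1 had 65.4 ± 2.98 CPM per kb, while its paralogs Ptbp2 (9.20 ± 0.791) and Ptbp3 (4.33 ± 0.763) were much lower. These ranks depend on the length chosen, which was 1728 bases for Hnrnpa2b1, whose annotated exons cover 6584. Without division by length, Hnrnpu (696 ± 29.5 CPM) and Srrm2 (612 ± 40.1) were above Hnrnpa2b1 (430 ± 49.9) at 0h.

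Because groups of these genes moved together, the sequence just before their transcription starts is shown for 4 of them, Clk4 and Tra2a from those that rose at 2h and Srsf6 and Srsf7 from those that fell at 4h. Clk4 and Tra2a were picked as the members with the most matches to the motif below, at 3 positions each, and so do not stand for the others that rose, which had 1 (Hnrnph1, Hnrnpk, Son and Srsf1) or 0 (Ptbp1). Of the genes that fell in 4h vs 0h, Srsf3, not shown, had matches at 2 positions. Hnrnpa0, Srsf5 and Srsf6 had 1, and Srsf4, Srsf7 and Srsf9 had 0. The 4 windows shown thus overstate the difference between genes that rose and genes that fell. Sequences are from RefSeq on GRCm38.p6, read 5′ to 3′ on the strand of the gene, up to 150 bases and without annotated exons. Capitals mark TGACG, the core of the cAMP response element (CRE) bound by CREB and ATF factors, on either strand. The Clk4 window is chr11:51263047-51263113 (plus strand), which lies 3′ of the first start of Clk4 in GENCODE M21 and outside its exons. The Tra2a window is chr6:49264053-49264202 (minus strand), that of Srsf6 is chr2:162931358-162931507 (plus strand) and that of Srsf7 is chr17:80207308-80207455 (minus strand), all 3 upstream of the gene.
Clk4: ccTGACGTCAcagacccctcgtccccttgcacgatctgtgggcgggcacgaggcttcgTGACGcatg
Tra2a: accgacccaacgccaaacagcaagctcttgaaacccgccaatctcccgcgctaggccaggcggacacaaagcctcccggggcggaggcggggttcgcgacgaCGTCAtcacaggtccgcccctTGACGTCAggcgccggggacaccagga
Srsf6: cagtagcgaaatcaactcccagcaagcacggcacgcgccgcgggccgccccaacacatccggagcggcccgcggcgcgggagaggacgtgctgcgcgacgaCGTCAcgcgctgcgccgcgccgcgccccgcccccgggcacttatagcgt
Srsf7: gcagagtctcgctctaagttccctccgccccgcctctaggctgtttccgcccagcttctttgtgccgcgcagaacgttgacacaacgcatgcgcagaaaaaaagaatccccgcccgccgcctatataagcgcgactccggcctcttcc

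TGACG was found at 3 positions before the starts of Clk4 and Tra2a, in each case with a full palindrome, TGACGTCA, in which the motif is counted once on each strand. The Srsf6 window held it at 1 position and the Srsf7 window at none. A promoter entry was matched by symbol for 39 of the 43 genes (not for Clk1, Hnrnpll, Hnrnpul2 and Ptbp3). Over the 150 bases before the start, TGACG on either strand was in 20 of the 39 (51.3%), against 21.3% of 9593 tested protein-coding genes and 13.3% of all 32851 entries. It was in 6 of the 7 genes with an entry that rose in 2h vs 0h, in 4 of the 10 that rose in 4h vs 0h and in 4 of the 7 that fell. Other motifs were searched in the same way. The AP-1 motif TGANTCA was in 1 of 39 members (2.56%; 2.28% of tested genes), the ETS motif CCGGAAG in 4 (10.3%; 12.1%) and the Sp1 motif GGGCGG in 25 (64.1%; 56.6%). These counts describe letters in a window and say nothing of binding.

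Relative to the other genes of a library, CLK and PTB genes were called higher after induction and part of the SR protein genes lower at 4h. Under total-count scaling, described below, the PTB and SR values of 4h vs 0h kept their sign, and those of Clk1 and Clk3 turned. In 2h vs 0h, 9 of the 43 genes were called higher (adjusted p under 0.05, edgeR) and none lower, where 3.98% and 2.46% of all 13451 tested genes were called. At an unadjusted p under 0.05, 16 were higher and 0 lower, beside 1578 and 1264 of all 13451 tested genes. At 4h against 0h, 12 were higher and 7 lower (background 20.5% and 18.9%). In 4h vs 2h, 8 were higher and 15 lower (19.7% and 19.2%). In rev vs 4h, 11 were higher and 8 lower (15.1% and 15.6%). In rev vs 0h, 9 were higher and none lower (6.49% and 4.66%). There, 14 were higher and 1 lower at an unadjusted p under 0.05, beside 1965 and 1593 of the 13451. DESeq2 called 12 higher and 0 lower in 2h vs 0h, and 10 higher and 1 lower in rev vs 0h. The median log2 fold change of the 43 genes was 0.14 in 2h vs 0h, where all tested genes had 0.01, and 0.14 in 4h vs 0h (all genes 0.03). It was -0.18 in 4h vs 2h (-0.01), 0.10 in rev vs 4h (0.02) and 0.13 in rev vs 0h (0.02). With an offset for transcript length and GC content, the median of 4h vs 0h was 0.00 (-0.00147; all genes 0.02), with 11 members higher and 11 lower. Without the filter on low counts, 9 were higher and 15 lower at 4h than at 0h, 5 higher and 23 lower at 4h than at 2h, and 17 higher and 5 lower in rev than at 4h. These comparisons share samples, so their counts are not independent of each other.

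**Figure D1:**
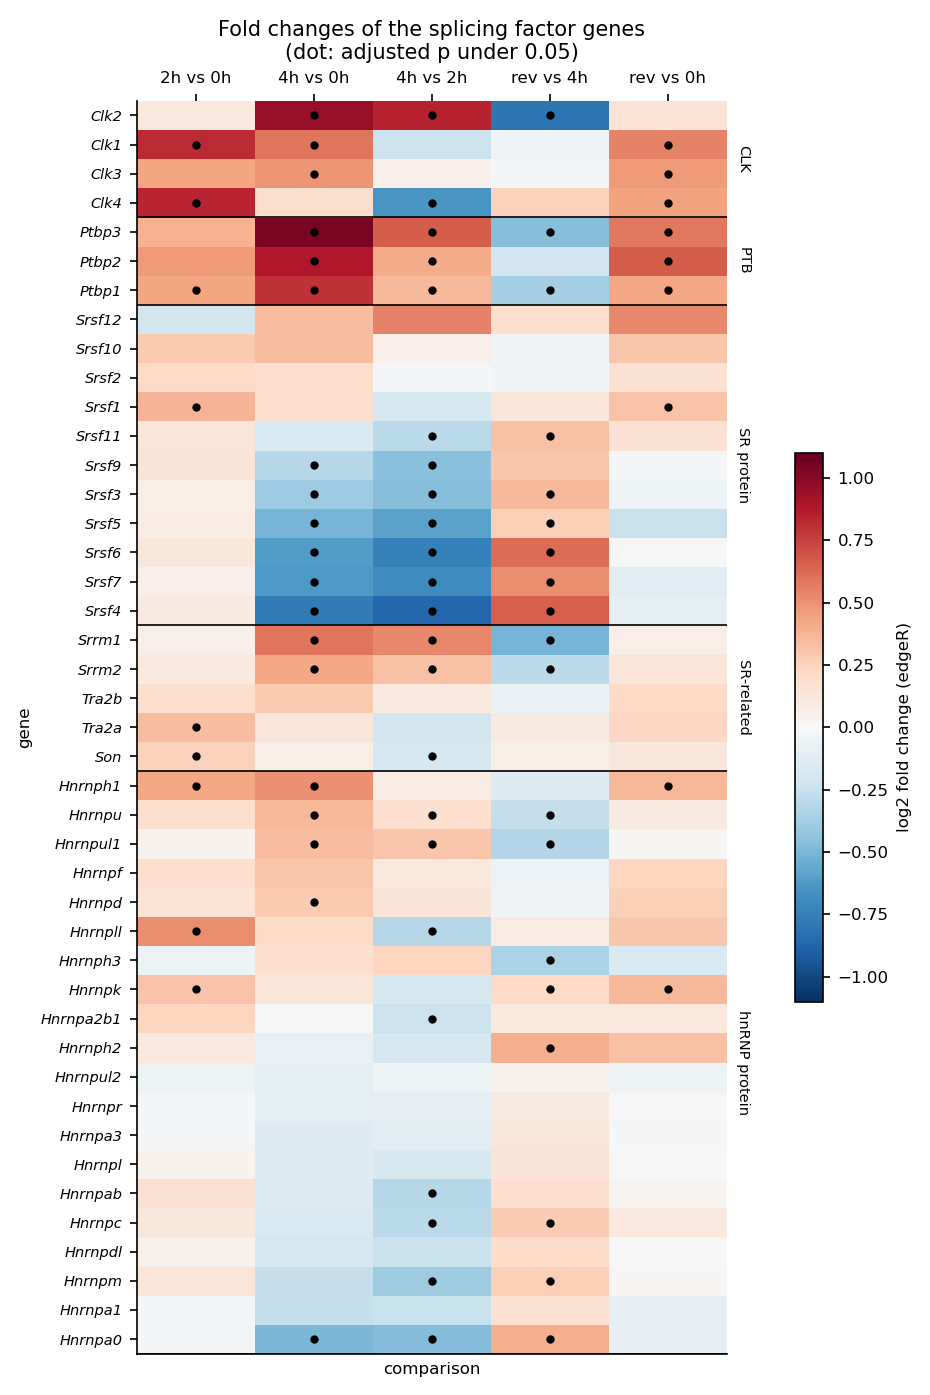
Heat map of log2 fold change (colour, edgeR, relative to the other genes of a library) for each of the 43 genes (rows, grouped by family) in 5 comparisons (columns). Dots mark an adjusted p under 0.05. Among SR proteins 6 genes are called lower in 4h vs 0h, and all 3 PTB genes are called higher.

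Direction depends on what a library is scaled to. When libraries were scaled to their total count, the median log2 fold change of all tested genes itself moved to -0.18 in 2h vs 0h, -0.73 in 4h vs 0h, -0.57 in 4h vs 2h, 0.45 in rev vs 4h and -0.30 in rev vs 0h. Relative to that median, every called gene of the 43 kept its sign in each of the 5 comparisons. Scaling shifts all genes of a library alike, so this was nearly fixed in advance and does not test the calls. Against 0 instead, 11 of the 19 called genes kept it in 4h vs 0h, where 0 of the 43 genes were then called higher and 20 lower. Most called genes of the whole set went the same way, with 6697 of 13451 called and 7.11% of these higher. Less RNA from a gene in each cell and fewer cells that express it cannot be told apart in these bulk samples.

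Among the 43 genes, Clk4 and Clk1 had the largest rises in 2h vs 0h. Clk1 (ENSMUSG00000026034), listed clone 4 first and then clone 8, had 29.8, 29.7 and 27.4 CPM in the 3 libraries at 0h and 44.9, 58.2, 58.3 and 42.5 CPM at 2h. At 4h it had 42.2, 38.5, 51.9 and 40.7 CPM, and in rev 40.1, 44.0, 36.5 and 48.4 CPM. Every library after induction was thus above every library before it. Clk1 rose 1.77-fold in 2h vs 0h (log2 0.82, SE 0.13, adjusted p = 0.000453) and was still above 0h at 4h (log2 0.59, SE 0.13, adjusted p = 0.00163), although this 4h value was -0.14 under total-count scaling. The log2 fold change of rev against 0h was 0.55 (adjusted p = 0.0100), no longer called without rev clone8_2 (adjusted p = 0.0573) and with an offset for transcript length and GC content (adjusted p = 0.0750).

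Clk4 (ENSMUSG00000020385) encodes the closest paralog of the Clk1 kinase and peaked at 2h. It had 15.8, 18.5 and 17.4 CPM at 0h and 27.6, 35.1, 34.6 and 26.7 CPM at 2h. The 4h libraries had 22.6, 21.5, 18.7 and 17.0 CPM, and those of rev 24.2, 22.3, 19.5 and 28.4 CPM. The 2h libraries were above all those of 0h and 4h, while the 4h libraries overlapped 0h. The rise in 2h vs 0h was 1.79-fold (log2 0.84, SE 0.14, adjusted p = 0.000841), and the fall in 4h vs 2h was 0.64 on the log2 scale (-0.64, SE 0.14, adjusted p = 0.000770). In rev vs 0h it was called higher at the margin (log2 0.45, adjusted p = 0.0487). This call did not hold without any one of 0h clone4_1 (adjusted p = 0.299, the largest), 0h clone8_1, 0h clone8_2, rev clone4_1, rev clone4_2 and rev clone8_2, nor with the offset (0.26, adjusted p = 0.219).

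Clk2 (ENSMUSG00000068917) responded later than Clk1 and Clk4. Its level was 22.7, 18.6 and 21.0 CPM at 0h and 21.2, 26.1, 20.7 and 22.7 CPM at 2h, which overlapped. At 4h it was 41.5, 39.5, 40.3 and 41.8 CPM, above every other library, and in rev it was 26.3, 23.2, 21.0 and 23.0 CPM. The change was 1.94-fold in 4h vs 0h (log2 0.96, SE 0.11, adjusted p = 1.64e-06), 0.85 in 4h vs 2h (adjusted p = 1.94e-06) and -0.80 in rev vs 4h (adjusted p = 5.80e-06). No omission of a single library of these groups removed any of the 3 calls.

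Clk3 (ENSMUSG00000032316) was the lowest of the CLK genes, and 1284 of its exon bases overlap Edc3 on the opposite strand, whose reads may be counted with it. The libraries had 12.2, 12.1 and 10.8 CPM at 0h, 15.3, 15.1, 15.6 and 16.8 CPM at 2h, 12.8, 19.7, 15.7 and 16.2 CPM at 4h, and 13.8, 14.7, 16.9 and 19.0 CPM in rev. All libraries after induction lay above those of 0h. Clk3 was called higher in 4h vs 0h (log2 0.49, SE 0.15, adjusted p = 0.0125; -0.30 under total-count scaling) and in rev vs 0h (log2 0.47, adjusted p = 0.0399), and was not called in 2h vs 0h (log2 0.43, adjusted p = 0.0739). The 4h call was lost without 0h clone8_2 (adjusted p = 0.0922) and without 4h clone4_2 (adjusted p = 0.0824), and the rev call without any one library of 0h or rev other than rev clone4_1, with the largest adjusted p (0.168) without 0h clone8_2.

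**Figure D2:**
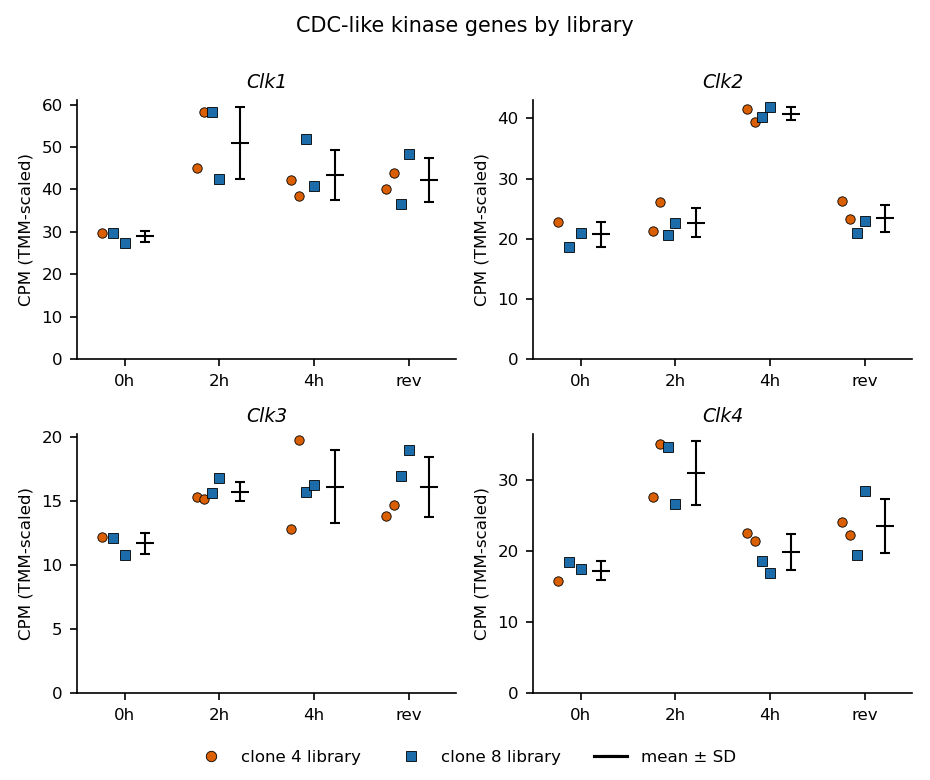
Level of each CLK gene (y axis, CPM on scaled libraries, from 0) in every library of the 4 groups (x axis); circles are clone 4, squares clone 8, and bars give the mean ± SD of 3 or 4 libraries. Clk1 and Clk4 are highest at 2h, and Clk2 at 4h is near 41 CPM in all 4 libraries.

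The other genes that rose at 2h were from the PTB, SR, SR-related and hnRNP families. The mRNA-binding protein gene Hnrnpll (ENSMUSG00000024095), which encodes an hnRNP L-like protein known for CD45 exon silencing in T cells, had 53.2, 48.3 and 45.2 CPM at 0h and 74.9, 83.7, 71.3 and 55.5 CPM at 2h. It had 58.6, 55.3, 57.8 and 56.2 CPM at 4h and 56.1, 71.1, 59.2 and 57.6 CPM in rev. The 2h libraries were all above 0h but overlapped 4h. Hnrnpll rose in 2h vs 0h (log2 0.52, SE 0.11, adjusted p = 0.00604) and fell in 4h vs 2h (-0.32, SE 0.10, adjusted p = 0.0178), the latter lost without 2h clone8_1 (adjusted p = 0.0527) or 4h clone4_2 (adjusted p = 0.0568). Hnrnph1, a G-tract binding factor, was called at 2h (log2 0.42, adjusted p = 0.00338) and kept this call without any one library of 0h or 2h, but not without the clone term (adjusted p = 0.0514). Srsf1, the founding SR protein, had 269 to 299 CPM at 0h and 341 to 395 CPM at 2h (log2 0.37, adjusted p = 0.00864).

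The remaining calls in 2h vs 0h were Ptbp1, described below, Tra2a (log2 0.34, adjusted p = 0.0495), Hnrnpk (0.31, adjusted p = 0.0349) and Son (0.25, adjusted p = 0.0415). Son is a scaffold of nuclear speckles, and Tra2a an activator of exons with purine-rich enhancers. Without 0h clone4_1, the only clone 4 library of its group, the calls of Srsf1 (adjusted p = 0.0677), Ptbp1 (0.0621), Tra2a (0.370), Hnrnpk (0.141) and Son (0.180) were lost, and 4 of the 9 were left. Srsf1 was also lost without 0h clone8_2, and Tra2a, Hnrnpk and Son without 0h clone8_1, 0h clone8_2, 2h clone4_2 or 2h clone8_1. Fold changes of all genes in 2h vs 0h went with GC content (Spearman's rho of -0.40 across 13436 genes, which are not independent replicates). With the offset for length and GC content, Srsf1 (log2 0.19, adjusted p = 0.200), Tra2a (0.17, adjusted p = 0.282) and Hnrnpk (0.14, adjusted p = 0.239) were not called.

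Of the 11 SR protein genes, 6 were called lower and 0 higher in 4h vs 0h. Against 2h, 7 were lower at 4h and 0 higher. Over the other settings that kept all libraries and did not scale to total counts, 5 to 7 were lower in 4h vs 0h. Srsf6 (ENSMUSG00000016921), an SR protein with a pair of RNA recognition motifs, had 217, 221 and 205 CPM at 0h and 219, 219, 246 and 239 CPM at 2h. At 4h it had 125, 131, 158 and 141 CPM, and in rev 203, 196, 215 and 235 CPM. All 4h libraries were below all others. The change was -0.61 in 4h vs 0h (SE 0.08, adjusted p = 4.42e-06), -0.74 in 4h vs 2h (adjusted p = 1.44e-07) and 0.62 in rev vs 4h (adjusted p = 2.27e-06), and all 3 calls held without any single library.

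Srsf7 (ENSMUSG00000024097), an SR protein with a zinc knuckle that also acts in mRNA export, had 94.4, 101 and 91.3 CPM at 0h and 99.8, 106, 93.2 and 96.3 CPM at 2h. It had 49.5, 56.3, 77.6 and 61.4 CPM at 4h and 87.2, 96.6, 82.8 and 82.0 CPM in rev. The 4h libraries were again the lowest, with the 2 of clone 4 below the 2 of clone 8. Its log2 fold change was -0.63 in 4h vs 0h (SE 0.12, adjusted p = 0.000200), -0.69 in 4h vs 2h (adjusted p = 3.83e-05) and 0.51 in rev vs 4h (adjusted p = 0.00118).

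Srsf4 (ENSMUSG00000028911) was the least abundant of the SR genes that fell, and 1532 of its exon bases overlap the non-coding gene Gm12992 on the opposite strand. It had 16.6, 14.6 and 14.9 CPM at 0h and 16.7, 14.9, 16.9 and 17.4 CPM at 2h. The 4h libraries had 10.4, 7.65, 7.74 and 10.9 CPM and the rev libraries 13.5, 16.0, 12.7 and 14.8 CPM. No 4h library reached any other library. The log2 fold change was -0.77 in 4h vs 0h (SE 0.15, adjusted p = 0.000421), -0.87 in 4h vs 2h (adjusted p = 6.34e-05) and 0.66 in rev vs 4h (adjusted p = 0.00141). With 17 counts in the shallowest library, this gene had the thinnest data of the 6.

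Srsf5, whose mRNA is known to respond to growth factors, fell from 118 to 142 CPM at 0h to 80.0 to 106 CPM at 4h (log2 -0.51, SE 0.09, adjusted p = 0.000170). Its rev libraries lay between, at 107 to 114 CPM, above all of 4h and below all of 0h. They were called higher than those of 4h (0.26, adjusted p = 0.0226), but not without 4h clone4_2, 4h clone8_2 or rev clone4_1 and with the offset (adjusted p = 0.419). Srsf3, the smallest SR protein and a factor in mRNA export, fell from 110 to 131 CPM to 80.0 to 107 CPM (log2 -0.40, SE 0.10, adjusted p = 0.00301) and rose in rev vs 4h (0.35, adjusted p = 0.00554). Srsf9 was at the margin in 4h vs 0h (-0.32, adjusted p = 0.0488), where its groups overlapped. It was not called there without 0h clone4_1 (adjusted p = 0.212), 0h clone8_1, 4h clone4_2 or 4h clone8_1, nor with the offset (-0.04, adjusted p = 0.814). Its fall in 4h vs 2h (-0.46, adjusted p = 0.00356) held without any one library of 2h or 4h.

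**Figure D3:**
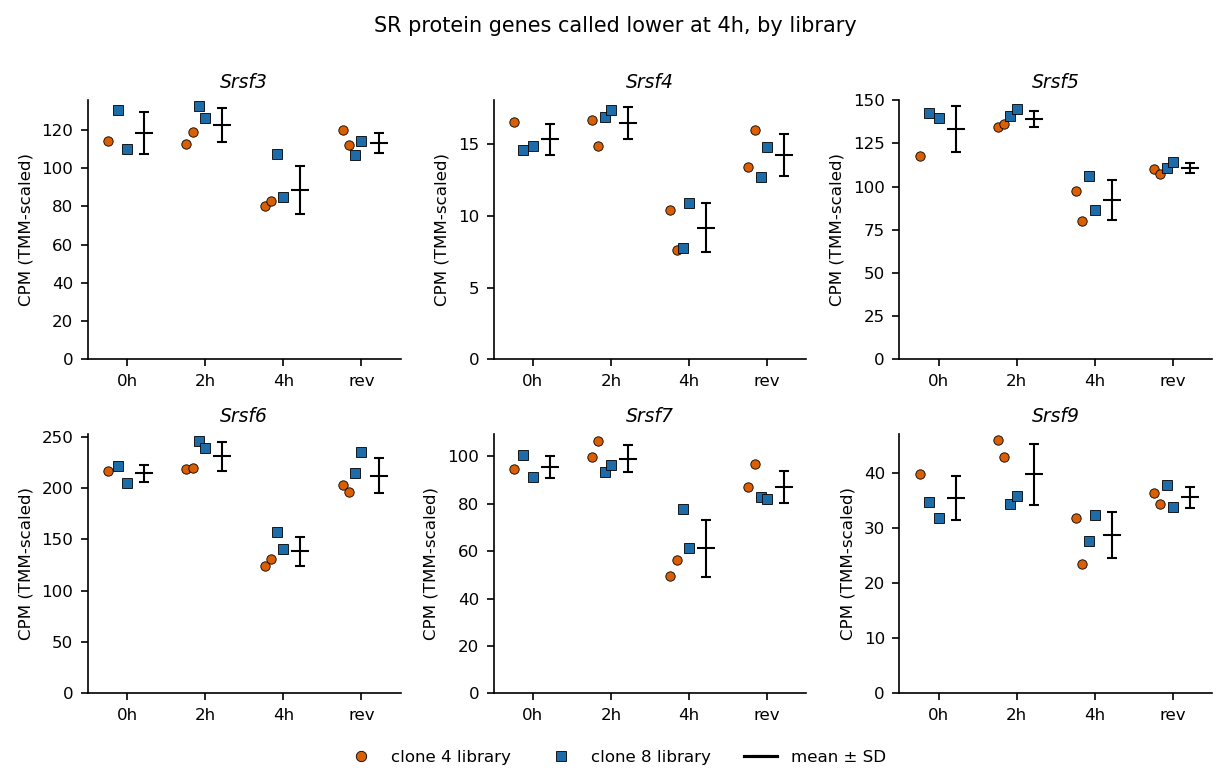
Levels of the 6 SR protein genes called lower in 4h vs 0h (y axis, CPM from 0, a scale per gene) in every library of the 4 groups (x axis); circles are clone 4, squares clone 8, and bars are the mean ± SD. The 4h libraries are the lowest for Srsf4, Srsf5, Srsf6 and Srsf7, while those of Srsf3 overlap rev and those of Srsf9 overlap 0h.

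The other 5 SR protein genes were not called in 4h vs 0h. Srsf1 (log2 0.18, adjusted p = 0.0929), Srsf2 (0.20, adjusted p = 0.0648) and Srsf10 (0.34, adjusted p = 0.0545) had positive values, and Srsf11 (-0.16, adjusted p = 0.309) a negative one. Srsf12, with 2 to 18 counts per library, was too low for its fold change (0.34, SE 0.47) to be read. Srsf11 was called lower in 4h vs 2h (-0.29, adjusted p = 0.0464) and higher in rev vs 4h (0.32, adjusted p = 0.0371), and both calls were lost without 4h clone4_1 (adjusted p = 0.188 and 0.139) or without the clone term (0.570 and 0.564). The first was also lost without 2h clone4_2, 2h clone8_1 or 4h clone8_2, and the second without 4h clone8_2, rev clone4_1, rev clone4_2 or rev clone8_2. So 6 SR genes were called higher in rev vs 4h, namely Srsf3, Srsf4, Srsf5, Srsf6, Srsf7 and Srsf11, and 0 lower.

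All 3 PTB genes were called higher in 4h vs 0h. Ptbp1 (ENSMUSG00000006498), the ubiquitous repressor of neuronal exons, shares 983 exon bases with genes on the opposite strand. It had 218, 200 and 204 CPM at 0h, 290, 328, 284 and 240 CPM at 2h, 387, 388, 329 and 360 CPM at 4h, and 257, 326, 250 and 301 CPM in rev. It stepped up without overlap from 0h to 2h and from 2h to 4h. Its log2 fold change was 0.43 in 2h vs 0h (SE 0.09, adjusted p = 0.00707), 0.79 in 4h vs 0h (SE 0.10, adjusted p = 1.75e-06) and 0.36 in 4h vs 2h (adjusted p = 0.00226; -0.14 under total-count scaling). In rev vs 4h it fell by 0.36 (-0.36, adjusted p = 0.00278; 0.01 under total-count scaling), yet in rev vs 0h it was 0.43 higher (adjusted p = 0.00497).

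Ptbp2 (ENSMUSG00000028134), the paralog that takes over in neurons, had 37.6, 35.0 and 31.6 CPM at 0h and 43.4, 65.7, 54.9 and 38.4 CPM at 2h. It had 69.6, 87.9, 57.6 and 55.8 CPM at 4h and 65.6, 79.4, 40.5 and 50.8 CPM in rev. Every library after induction was above 0h, and the spread within a group was wide. The rise in 4h vs 0h was 1.84-fold (log2 0.88, SE 0.16, adjusted p = 0.000218). In 4h vs 2h it was 0.41 (adjusted p = 0.0296; -0.13 under total-count scaling), a call lost without 2h clone4_1 (adjusted p = 0.135), 2h clone8_2 or 4h clone4_2. In rev vs 0h it was 0.67 (adjusted p = 0.00898), lost without 0h clone4_1 (adjusted p = 0.102) and without the clone term (adjusted p = 0.0549).

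Ptbp3 (ENSMUSG00000028382), a family member known from blood cells, had 23.9, 30.9 and 34.2 CPM at 0h, 30.4, 45.2, 47.4 and 29.7 CPM at 2h, 61.7, 60.7, 58.7 and 60.7 CPM at 4h, and 39.9, 48.8, 37.6 and 48.6 CPM in rev. Its 4h libraries were above all others and closely spaced. Ptbp3 had the largest rise of the 43 genes in 4h vs 0h, 2.06-fold (log2 1.04, SE 0.16, adjusted p = 4.27e-05), and with the offset this was 0.74 (adjusted p = 4.63e-06). It fell in rev vs 4h (-0.47, adjusted p = 0.0191), not called without rev clone4_1 (adjusted p = 0.0568) or rev clone8_1 (adjusted p = 0.0602). Against 0h it was called higher in rev (0.58, adjusted p = 0.0231), but not without 0h clone4_1 (adjusted p = 0.219), 0h clone8_1, rev clone4_2 or rev clone8_2.

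**Figure D4:**
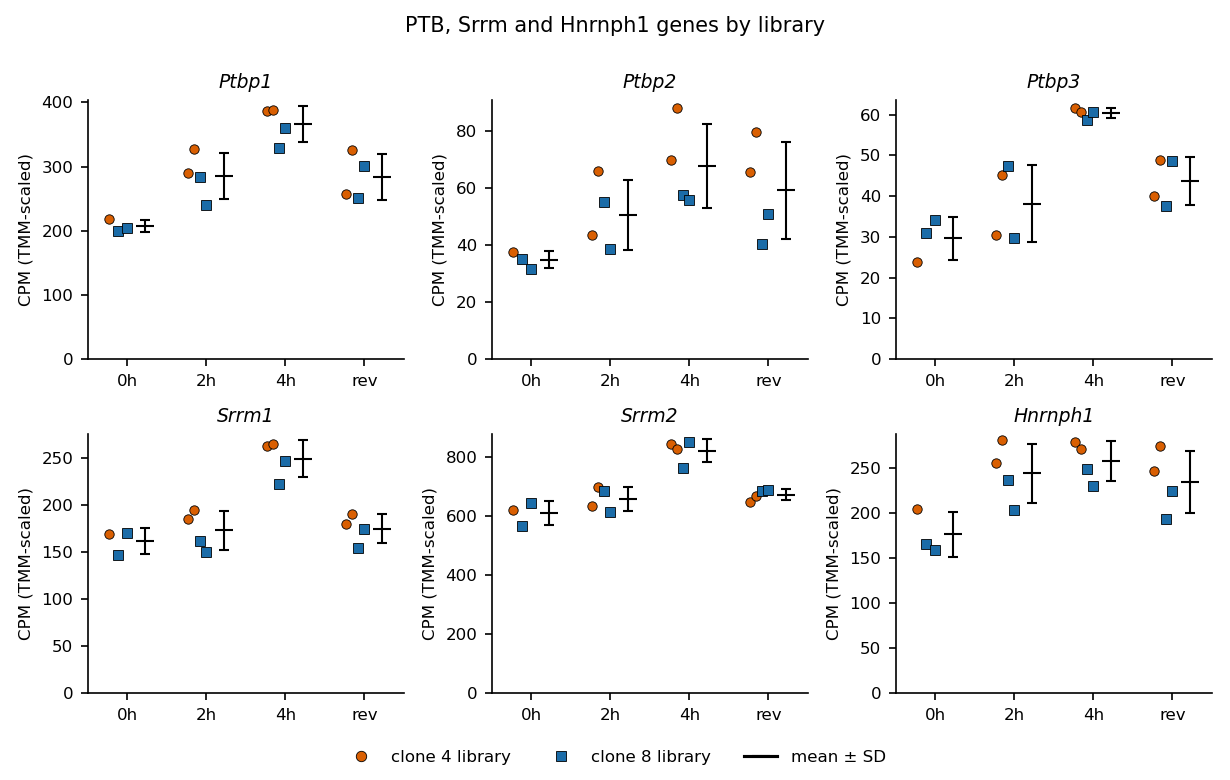
Levels of the 3 PTB genes, Srrm1, Srrm2 and Hnrnph1 (y axis, CPM from 0, a scale per gene) in every library of the 4 groups (x axis); circles are clone 4, squares clone 8, and bars are the mean ± SD. The 4h libraries of Ptbp3, near 60 CPM, and of Ptbp1, Srrm1 and Srrm2 lie above all others, for Ptbp1 by a narrow margin.

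Of the 5 SR-related genes, Srrm1 and Srrm2 were called higher in 4h vs 0h and 0 were lower. Srrm1 (ENSMUSG00000028809), a coactivator that bridges SR proteins and the spliceosome, had 169, 147 and 171 CPM at 0h and 185, 195, 163 and 151 CPM at 2h. It had 263, 265, 222 and 247 CPM at 4h and 180, 191, 154 and 175 CPM in rev. The 4h libraries were above all the rest, which overlapped each other. Its log2 fold change was 0.59 in 4h vs 0h (SE 0.09, adjusted p = 1.69e-05; -0.10 under total-count scaling), 0.53 in 4h vs 2h (adjusted p = 1.75e-05) and -0.51 in rev vs 4h (adjusted p = 3.90e-05). Srrm2, a large scaffold of nuclear speckles, went from 568 to 646 CPM at 0h to 765 to 853 CPM at 4h (log2 0.43, SE 0.07, adjusted p = 0.000110; -0.26 under total-count scaling) and fell in rev vs 4h (-0.29, adjusted p = 0.00232; 0.08 under total-count scaling). Son (0.06, adjusted p = 0.533), Tra2a (0.14, adjusted p = 0.303) and Tra2b (0.29, adjusted p = 0.0584) were not called in 4h vs 0h.

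At 4h, 4 of the 20 hnRNP genes were called higher than at 0h and 1 lower, where 20.5% and 18.9% of all tested genes were, so the share called higher (4 of 20) was near the background. Over the other settings that kept all libraries and did not scale to total counts, 2 to 4 were higher and 1 to 8 lower. With the offset, 2 were higher and 5 lower, and without the filter on low counts 2 and 8. The median log2 fold change of the 20 genes was -0.09. Hnrnph1 went from 159 to 205 CPM at 0h to 230 to 279 CPM at 4h (log2 0.50, SE 0.09, adjusted p = 8.78e-05). Hnrnpu, a nuclear scaffold protein, had 665 to 724 CPM at 0h and 860 to 975 CPM at 4h (0.36, adjusted p = 0.000144), but 0.10 (adjusted p = 0.412) with the offset. Hnrnpul1 (0.34, adjusted p = 0.00309) and Hnrnpd, which binds AU-rich elements (0.29, adjusted p = 0.0133), were the others. Hnrnpd was lost with the offset (0.05, adjusted p = 0.634) and without each 0h library in turn, with the largest adjusted p (0.0702) without 0h clone4_1. Under total-count scaling these 4 values were -0.21, -0.34, -0.36 and -0.41. Hnrnpa0, a substrate of MAPKAP kinase 2, fell from 129 to 202 CPM to 106 to 130 CPM (-0.49, SE 0.13, adjusted p = 0.00478), which was not called without 0h clone4_1 (adjusted p = 0.0818). The other 15 were not called, with log2 fold changes between -0.26 for Hnrnpa1 and 0.30 for Hnrnpf. In 4h vs 2h, Hnrnpu and Hnrnpul1 were called higher and 6 hnRNP genes lower, which were Hnrnpa0, Hnrnpm, Hnrnpll, Hnrnpab, Hnrnpc and Hnrnpa2b1. The call of Hnrnpu was lost without 2h clone4_1, without 2h clone4_2 (adjusted p = 0.0705) and with the offset (0.08, adjusted p = 0.476). The last 3 of these were lost without 2h clone8_2 (Hnrnpab, adjusted p = 0.132), 4h clone4_1 (Hnrnpc, adjusted p = 0.0774) or 4h clone4_2 (Hnrnpa2b1, adjusted p = 0.0944), among others for the first and second. Hnrnpa1 has processed pseudogenes, and how reads shared with such copies were counted is not given in the sources used here.

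In rev, changes against 4h were found in every family. Of the hnRNP genes, 5 were called higher in rev vs 4h (Hnrnpa0, Hnrnph2, Hnrnpc, Hnrnpm and Hnrnpk, with log2 fold changes of 0.40, 0.40, 0.28, 0.27 and 0.22) and 3 lower (Hnrnph3 -0.35, Hnrnpul1 -0.33 and Hnrnpu -0.26), the last 3 being 0.06, 0.05 and 0.11 under total-count scaling. Each of these but Hnrnpul1 and Hnrnpu was lost on leaving out any of 2 to 6 of the 8 libraries. The largest adjusted p was 0.0736 for Hnrnpa0 and 0.175 for Hnrnpm (both without 4h clone4_2), 0.0826 for Hnrnph2 and 0.148 for Hnrnpk (without 4h clone4_1), and 0.147 for both Hnrnpc and Hnrnph3 (without rev clone8_1). With the offset, Hnrnpu (adjusted p = 0.0661) and Hnrnpc (adjusted p = 0.108) were not called. The comparison with 0h, which shares samples with those above, gives the state after the inhibitor. There the SR genes that had fallen were at log2 0.00 (Srsf6, SE 0.08), -0.04 (Srsf3, SE 0.10), -0.11 (Srsf4, SE 0.14), -0.13 (Srsf7, SE 0.12), -0.01 (Srsf9, SE 0.12) and -0.25 (Srsf5, SE 0.09, adjusted p = 0.0849), and Clk2 and Srrm1 at 0.15 (SE 0.11) and 0.08 (SE 0.08), none of them called. Other settings did call SR genes lower in rev than at 0h, 2 of the 11 with the offset and 1 each with DESeq2, with only the groups compared, and without the most abundant and mitochondrial genes. The 9 genes called higher in rev vs 0h were Clk1, Clk3, Clk4, Ptbp1, Ptbp2, Ptbp3, Srsf1 (0.32, adjusted p = 0.0177; -0.02 under total-count scaling), Hnrnph1 (0.36, adjusted p = 0.00732) and Hnrnpk (0.36, adjusted p = 0.0107). Of these, Ptbp1 and Hnrnph1 kept the call without any one library of 0h or rev, though Hnrnph1 lost it without the clone term (adjusted p = 0.0637). With the offset, Srsf1 (0.09, adjusted p = 0.572) and Hnrnpk (0.17, adjusted p = 0.119) were not called. Without 0h clone4_1, 3 of the 43 genes were called, and Srsf1 (adjusted p = 0.110) and Hnrnpk (adjusted p = 0.0623) were not.

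The clones were compared gene by gene. In a joint test of the group by clone interaction, 0 of the 43 genes were called, where 3.18% of all tested genes were. The lowest adjusted p in edgeR were those of Hnrnpdl (0.188) and Srsf7 (0.279), which were the 2 genes with an unadjusted p under 0.05 in this joint test. Hnrnpdl, a paralog of Hnrnpd, had 94.1 and 95.3 CPM in the clone 4 libraries at 4h and 151 and 141 CPM in those of clone 8, with 134 CPM in clone 4 and 151 and 135 CPM in clone 8 at 0h. With the offset for length and GC content, its interaction was called (adjusted p = 0.0151). The fold change had the same sign in both clones for 31 of 43 genes in 2h vs 0h, 37 in 4h vs 0h, 40 in 4h vs 2h, 34 in rev vs 4h and 30 in rev vs 0h. In 4h vs 0h, Srsf6 was at -0.76 in clone 4 and -0.52 in clone 8, Clk2 at 0.83 and 1.05, and Ptbp3 at 1.35 and 0.88. Hnrnpa1 was there at -0.53 and -0.06, and Clk4 at 0.48 and -0.01. Tested in each comparison alone, the clone difference was called for 0 of the 43 genes. Its unadjusted p was under 0.05 for 5 genes in 4h vs 0h, 4 in 4h vs 2h and 2 in rev vs 4h. The median of the 43 genes in 4h vs 2h was -0.23 in clone 4 and -0.04 in clone 8. These values were not counted over all tested genes. The level of Srsf11, singled out after its values were seen, was 47.0 to 84.7 CPM in the 7 clone 4 libraries and 112 to 153 CPM in the 8 of clone 8, the only one of the 43 genes with no overlap between clones. The share of all tested genes without such overlap was not counted.

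**Figure D5:**
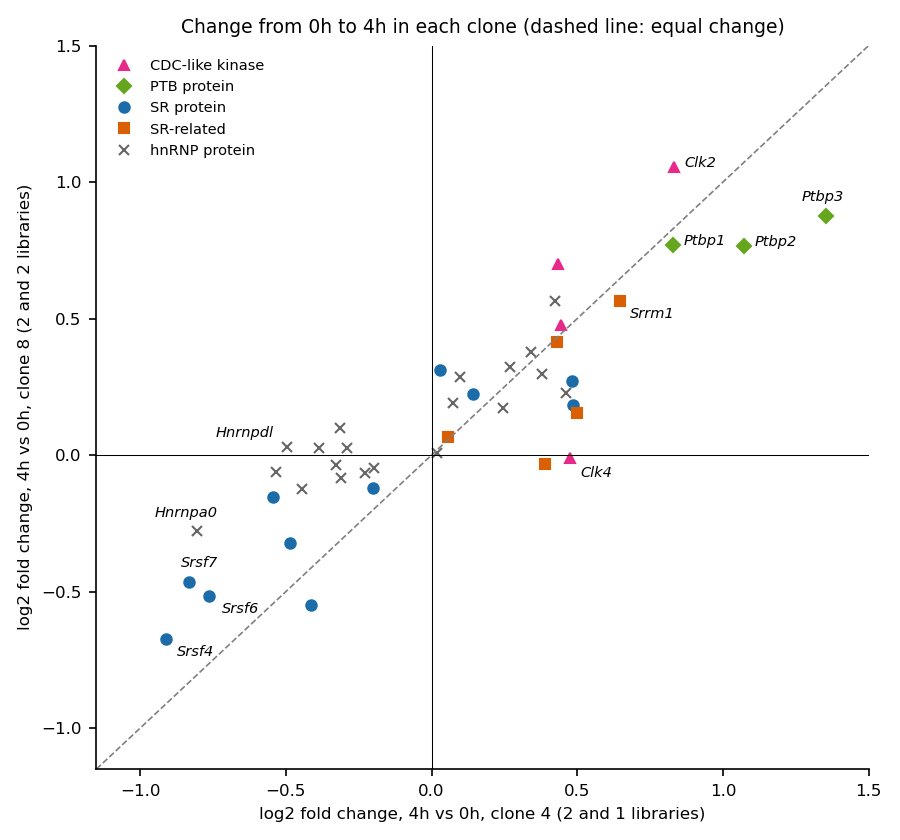
Log2 fold change of each of the 43 genes in 4h vs 0h (relative to the other genes of a library) in clone 4 (x axis) and clone 8 (y axis), with families by symbol and a dashed line of equal change. For 37 genes both clones have the same sign.

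Other genes of the splicing machinery, from lists made by name, were counted for 4h vs 0h, where 20.5% of all tested genes were called higher and 18.9% lower. Of those named here as rising, only Mbnl2 had a positive value under total-count scaling (0.21), and the rest lay between -0.32 and -0.10, while those named as falling stayed negative. Among 20 SR kinases and further SR-related factors, 5 were called higher and 2 lower. The 3 that rose most were Ppig (log2 0.62, adjusted p = 0.00182), Cdk12 (0.52, adjusted p = 0.000275) and Cdk13 (0.46, adjusted p = 0.000228), the last 2 being kinases of RNA polymerase II, and the 2 that fell were Srek1 (-0.47, adjusted p = 0.00202) and Rbm39 (-0.32, adjusted p = 0.00971). Of 39 core spliceosome genes, 5 rose and 14 fell, with a median of -0.13. The largest falls were in Sm proteins of the snRNP core, Snrpg (-1.45, adjusted p = 1.07e-06), Snrpe (-1.23, adjusted p = 3.02e-07) and Snrpb (-1.02, adjusted p = 1.98e-06). Branch point and snRNP factors Sf1 (0.54), Sf3a2 (0.52) and Snrpa (0.49) rose. Of 14 genes of nonsense-mediated decay and the exon junction complex, 2 were called higher and 1 lower. Upf2 rose (0.38, adjusted p = 0.0138) and Eif4a3, a core protein of the exon junction complex, fell (-0.62, adjusted p = 0.000199).

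Of 35 other RNA-binding regulators of splicing, 14 rose and 4 fell in 4h vs 0h. The epithelial splicing regulators Esrp1 and Esrp2 fell most. Mean levels of Esrp1 (± SD, with 3 libraries at 0h and 4 in the others) were 47.1 ± 1.45 CPM at 0h, 12.5 ± 2.79 CPM at 4h and 42.2 ± 4.09 CPM in rev, and its log2 fold change in 4h vs 0h was -1.93 (SE 0.14, adjusted p = 1.06e-09). For Esrp2 they were 11.9 ± 0.205, 2.40 ± 0.188 and 8.82 ± 0.945 CPM, with a log2 fold change of -2.30 (SE 0.18, adjusted p = 4.68e-09). Khdrbs3 also fell (-0.98, adjusted p = 0.000118), and Mbnl2 (0.88, adjusted p = 0.00440), Qk (0.59, adjusted p = 0.00102) and Pcbp1 (0.55, adjusted p = 0.000194) rose most. Mbnl2 went from 7.61 to 22.0 and 19.7 CPM in clone 4 and from 4.81 and 6.66 to 7.97 and 7.92 CPM in clone 8. In rev vs 4h, Esrp1 (1.76, adjusted p = 2.71e-09) and Esrp2 (1.90, adjusted p = 6.90e-08) were called higher.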

How the data were processed

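RNA was measured in 15 samples. Per the labels, libraries were made from 1 µg of total RNA after ribosomal RNA had been removed. The authors deposited raw counts per gene, all whole numbers and not normalized. The submitters' processing notes name STAR 2.5.3a, bcl2fastq 2.19.1 and mm10, without their role. The counting tool, annotation and strand handling are not given in the sources used here, so reads of overlapping or antisense genes and of close copies cannot be told apart. Exons of 20 of the 43 genes overlap those of another gene in GENCODE M21 (GRCm38), which gave names and biotypes for 52489 of 52636 identifiers.

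Counts were tested in R 4.3.3 with the quasi-likelihood test of edgeR 4.0.16 (two-sided, robust), after filterByExpr (minimum count 10, minimum total 15; 13451 genes) and TMM scaling, in a model of group and clone over all 15 samples. Adjusted p is Benjamini-Hochberg over all tested genes, and a gene was called under 0.05. CPM is the count scaled to the TMM-adjusted size of its library, and SE, that of the log2 fold change, is its size divided by the square root of F. Alternatives were a replicate block, no clone term, only the groups compared, RLE or total-count scaling, no filter, leaving out mitochondrial genes and the 20 with the most counts, DESeq2 1.42.0, leaving out each library, and, chosen after seeing the data, an offset for transcript length and GC content. The test was also run on simulated counts of 13451 genes, with 100 changed 4-fold and 100 changed 2-fold in each comparison. It found 94 and 52 of them in 4h vs 0h (6 false calls). In 2h vs 0h it found 98 and 69 (5 false calls), and in rev vs 0h 98 and 62 (5 false calls). False calls were more frequent in 4h vs 2h (17, beside 94 and 53 found) and in rev vs 4h (12, beside 96 and 61).

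Values in every library are given for the CLK genes and for called genes among the 3 largest rises or falls in any comparison other than rev against 0h (11 genes in all), and for Ptbp1, added to complete its family. Of the other splicing lists, up to 3 called genes each way in 4h vs 0h are named, other than 1 that is not reported here. The genes and lists were chosen with earlier results of these data known.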

Additional observations from a re-analysis of the deposited data

How the results depend on the processing

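Counts of called genes among the 43 were 9 (2h against 0h), 19 (4h against 0h), 23 (4h against 2h), 19 (rev against 4h) and 9 (rev against 0h). Leaving out one library at a time gave 4 to 10, 17 to 22, 20 to 26, 13 to 19 and 3 to 11 in this order. Without the clone term the first and last of these were 5 and 4. Scaling to total counts gave 0 for 2h against 0h, 8 for rev against 4h and 0 for rev against 0h. Of all 13451 tested genes, 266, 3148 and 759 were then called. This scaling turned the medians against 0h of 2h (-0.0645), 4h (-0.580) and rev (-0.190) and the values of Clk1 (-0.144), Clk3 (-0.299) and Srrm1 (-0.0986) in 4h vs 0h and of Ptbp2 in 4h vs 2h (-0.135). Relative to all genes these kept their sign, which was nearly fixed in advance by a shift common to all genes. The offset for length and GC content turned the median of 4h vs 0h to -0.00147, gave 11 higher and 11 lower there, and called 1 clone difference where none was called without it. Without a filter on low counts, 9 were higher and 15 lower in 4h vs 0h, and 5 and 23 in 4h vs 2h. The cause of these changes was not tested. Over 32 called changes of the 11 named genes and the alternatives, 695 values kept direction and call, 69 lost the call and 4 turned. Most of these genes were named for their large changes, and the alternatives include leaving out libraries of groups not compared, so many kept calls were built in. Over all 43 genes, calls lost without some library of the groups compared were 5 of 9 (2h vs 0h), 4 of 19 (4h vs 0h), 8 of 23 (4h vs 2h), 9 of 19 (rev vs 4h) and 7 of 9 (rev vs 0h).

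With the replicate block, the counts were 6, 18, 23, 19 and 7. The labels do not say that a number marks a shared culture or day, and not every same-numbered pair of libraries correlated above 0.1 in its deviations (19 of 21 did), so the numbers were not taken to pair the samples. These correlations, 0.0465 to 0.436, stood beside those of libraries of a clone with other numbers, 0.0788 to 0.439. The depth of the 4h libraries sets the precision: 3 counts were worth 0.683 to 1.83 CPM there and 0.161 to 0.423 CPM elsewhere, for counting error only.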
